A study of Rattus norvegicus with 6 samples.

Results

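The olfactory receptor genes studied here are the rat genes numbered from Olr851 upward that had at least 1 entry in the deposited lists of genes with an H3K27me3 peak. They came to 326 gene IDs among the 22427 genes named by any library. H3K27me3, trimethylation of lysine 27 of histone H3, was mapped by ChIP-seq (sequencing of DNA pulled down with an antibody to the mark) in cardiomyocytes cultured straight from the hearts of neonatal Sprague Dawley rats, with 10% FBS in the medium. Control cells received PBS and treated cells received 5 mM α-KG (α-ketoglutarate, a metabolite that histone demethylases consume) for 24 h, with 2 libraries in each group, named control 1, control 2, α-KG 1 and α-KG 2. Each library is a list, so a gene is listed or not listed, and no height, position or read depth stands behind an entry. The labels do not say whether libraries of a group came from separate cultures. The members were chosen from these same lists, so every count below describes them and carries no p-value; 2 libraries against 2 could in any case give no exact permutation p below 0.333.

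Olfactory receptors are G protein-coupled receptors that bind odorants in the nose. Their genes form the largest receptor family of rodents, lie in clusters of tandem copies, and have a coding sequence in a single exon. Each olfactory neuron expresses a single receptor gene, and the other copies, like nearly all copies in other tissues, stay silent. The silent copies of olfactory neurons are known for constitutive heterochromatin carrying H3K9me3, whereas H3K27me3 is placed by Polycomb complexes, best known at CpG-rich developmental genes.

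The symbols ran from Olr851 to Olr1877. They covered 321 of the 1027 numbers in that span, and 5 numbers had 2 gene IDs. All 326 members carried an olfactory receptor domain in the deposited domain names, as the label says. The rule's edge fell inside a continuous series. Just inside it, Olr851 was listed in control 1 and both α-KG libraries, Olr852 in both controls, and Olr853 and Olr854 in all 4 libraries. Just outside it, Olr850 was listed in control 1 alone and Olr848 in all 4. RefSeq's annotation of the later assembly GRCr8 gave 317 members a gene, 18 by current symbol and 299 by an older symbol. Of the 577 protein-coding RefSeq genes with such a number, 313 (54.2%) had an entry in at least 1 library. The same share over all protein-coding RefSeq genes or over the lower number ranges is not given here, so this one cannot be called high or low.

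The sequence around the annotated start was available for 264 members (81.0%) as a window of 300 bases, 250 before the start and 50 after it. These are 261 different windows, since both gene IDs of Olr1065, Olr1434 and Olr1567 take the same window and are counted separately below. For 262 of the 264 members the start was the start codon itself. The window then shows the bases next to the coding sequence, and where transcription begins is not known from it. The windows below show the members the results turn on, 5′ to 3′ on the gene's strand from RefSeq (build GRCr8), with every CG dinucleotide in capitals. Olr1106 had the most CG dinucleotides of any member (14) and Olr1766 had 0, and both were listed in all 4 libraries. Olr862 and Olr868, of the Or10ak subfamily and the same cluster, were listed in the α-KG libraries alone. Olr1600 and Olr1602, from a cluster with 3 such genes, were listed in the controls alone. The 6 windows lie at chr7:131395091-131395390 (minus strand), chrX:134048098-134048397 (minus), chr5:137598925-137599224 (minus), chr5:137748821-137749120 (minus), chr13:88848271-88848570 (plus) and chr13:88925456-88925755 (plus), in the order printed.
Olr1106: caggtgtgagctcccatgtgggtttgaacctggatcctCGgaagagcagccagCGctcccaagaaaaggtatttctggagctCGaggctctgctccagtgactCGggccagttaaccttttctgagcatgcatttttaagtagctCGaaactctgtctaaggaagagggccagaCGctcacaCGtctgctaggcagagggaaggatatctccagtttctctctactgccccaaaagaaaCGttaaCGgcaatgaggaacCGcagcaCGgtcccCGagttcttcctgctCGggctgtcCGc
Olr1766: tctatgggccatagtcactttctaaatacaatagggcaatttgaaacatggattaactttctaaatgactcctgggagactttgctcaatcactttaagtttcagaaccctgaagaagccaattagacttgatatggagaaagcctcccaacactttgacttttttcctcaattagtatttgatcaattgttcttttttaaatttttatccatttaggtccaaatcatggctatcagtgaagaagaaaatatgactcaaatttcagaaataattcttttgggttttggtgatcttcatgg
Olr862: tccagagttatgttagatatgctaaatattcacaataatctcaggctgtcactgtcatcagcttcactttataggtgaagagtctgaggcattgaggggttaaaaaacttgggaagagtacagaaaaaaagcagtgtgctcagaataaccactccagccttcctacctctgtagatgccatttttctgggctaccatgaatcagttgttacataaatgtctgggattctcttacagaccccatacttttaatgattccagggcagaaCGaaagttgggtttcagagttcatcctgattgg
Olr868: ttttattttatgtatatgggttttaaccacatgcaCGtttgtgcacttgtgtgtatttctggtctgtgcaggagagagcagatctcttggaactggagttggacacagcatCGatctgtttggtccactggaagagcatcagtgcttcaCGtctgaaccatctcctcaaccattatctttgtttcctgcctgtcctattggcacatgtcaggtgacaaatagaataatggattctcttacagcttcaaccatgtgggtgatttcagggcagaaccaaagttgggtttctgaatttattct
Olr1600: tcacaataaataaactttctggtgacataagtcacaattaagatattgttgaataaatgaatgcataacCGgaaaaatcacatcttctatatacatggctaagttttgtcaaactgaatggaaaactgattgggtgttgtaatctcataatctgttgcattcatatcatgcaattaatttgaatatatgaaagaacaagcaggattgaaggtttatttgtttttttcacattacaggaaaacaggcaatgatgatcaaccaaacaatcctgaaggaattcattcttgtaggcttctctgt
Olr1602: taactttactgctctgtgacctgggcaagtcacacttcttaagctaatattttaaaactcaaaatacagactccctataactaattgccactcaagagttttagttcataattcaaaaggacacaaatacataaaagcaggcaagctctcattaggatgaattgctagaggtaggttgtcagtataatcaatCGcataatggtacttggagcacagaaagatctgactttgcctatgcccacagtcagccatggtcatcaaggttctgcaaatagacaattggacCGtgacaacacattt

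Member windows were poor in CG dinucleotides. Their median was 1 per window (quartiles 0 and 2), and 31.4% of them had none. All 27457 RefSeq windows had a median of 7 (quartiles 3 and 20), with 5.30% holding none. Most of those windows begin at a transcript's start and not at a start codon. The 2895 RefSeq windows with a start codon at the start, olfactory receptors included, had a median of 2 (quartiles 1 and 6), and 17.3% had none. Median G+C content was 36.2% for members, 42.0% for the start-codon windows and 52.3% for all.

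The number of libraries that listed a member did not go with a different median CG count. It was 1 for members in 1 library (61 windows), 2 libraries (67), 3 libraries (68) and 4 libraries (68), with means of 1.28, 1.45, 1.49 and 2.04. Members whose windows held 9 or more were mostly in every library. After Olr1106 came Olr1356 with 12, listed in all but control 1, then Olr1107 and Olr1667 with 10 and Olr1108 and Olr1638 with 9, each listed in all 4. Members with 5 or 6 ranged from 1 library (Olr1105 and Olr1387) to all 4 (Olr1382 and Olr1639). Members were searched on both strands for TAATTA, a core bound by homeodomain factors such as Lhx2 and Emx2, and for CCCNNGGG, a core bound by Ebf factors. Both motifs read the same on either strand, and they cannot overlap each other. TAATTA was in 20.1% of member windows, 11.3% of the start-codon windows and 5.38% of all windows. CCCNNGGG was in 1.14%, 6.08% and 12.7% of them. These sets differ in base composition, as given above, and a match is a description of letters only.

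**Figure D1:**
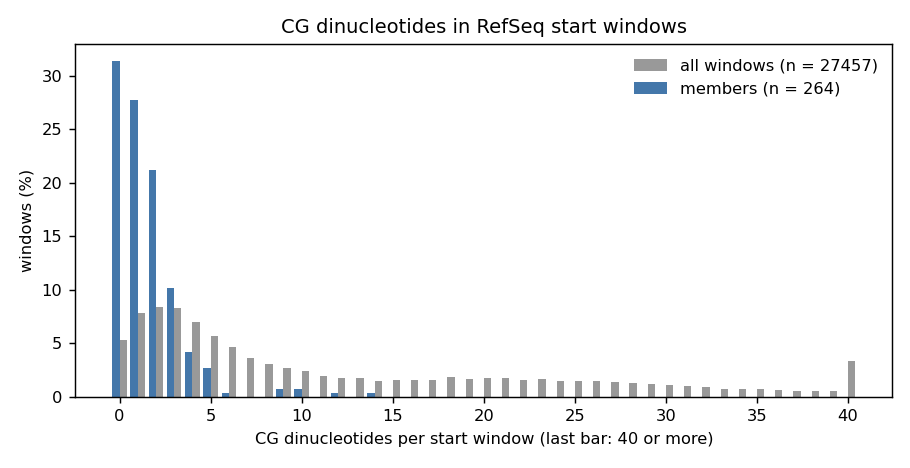
CG dinucleotides per 300-base start window (x axis) against the percentage of windows (y axis), for the 264 members with a window and for all 27457 RefSeq windows. Member windows pile up at 0 to 2, with a median of 1 against 7 for all windows.

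Both controls and α-KG 1 listed nearly the same number of members, and α-KG 2 listed far fewer. Control 1 listed 228 of the 326 members (69.9%), control 2 listed 227 (69.6%), α-KG 1 listed 224 (68.7%) and α-KG 2 listed 147 (45.1%). Controls averaged 227.5 ± 0.707 members and α-KG libraries 185.5 ± 54.4 (SD over 2 libraries), a difference of -42 members for α-KG minus control. The difference was smaller than the α-KG replicates' own spread, and it was -3.5 without α-KG 2 and -80.5 without α-KG 1. α-KG 1 thus lay at the level of the controls.

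The shortfall of α-KG 2 went with no shortfall of its whole list, which was the longest of the 4 at 19181 genes (85.5% of all listed genes, against 76.9% to 82.2% in the others). The neighbouring number ranges also had their lowest share in α-KG 2. Olr1 to Olr400 had 33.0% of 182 genes there and 52.2% to 66.5% in the others. Olr401 to Olr850 had 22.5% of 138 there and 52.2% to 66.7% in the others. In both lower ranges control 1 listed the most and α-KG 1 fewer than either control, whereas the members were level across those 3 libraries. No test of the difference between ranges was made.

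**Figure D2:**
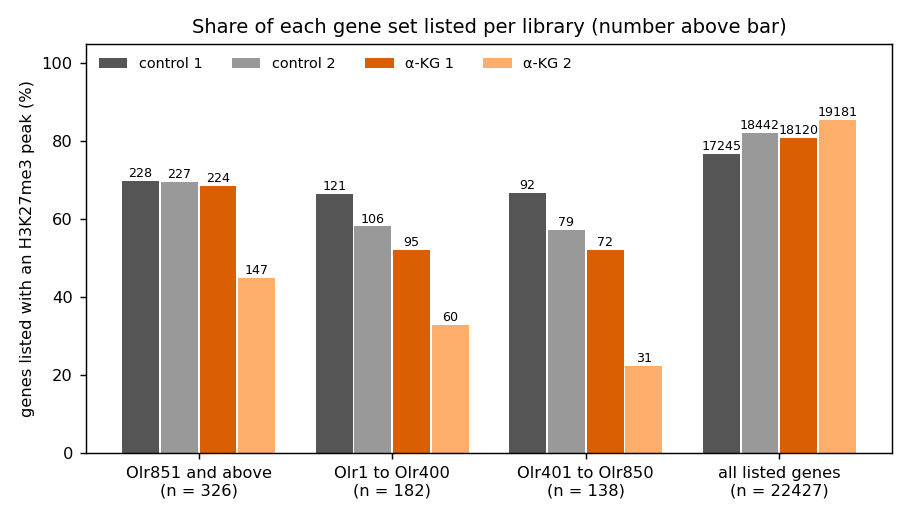
Percentage of each gene set listed with an H3K27me3 peak (y axis) in each of the 4 libraries (bars, with the number listed above), for Olr851 and above, the 2 lower number ranges and all listed genes. For the members α-KG 2 stands at 45.1% and the other libraries at 68.7% to 69.9%, while for all genes α-KG 2 is the highest at 85.5%.

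Members were listed unevenly from library to library. In all, 86 of the 326 (26.4%) were in all 4 libraries, against 62.8% of all listed genes. The lower ranges had smaller shares, 13.7% for Olr1 to Olr400 and 10.1% for Olr401 to Olr850. A further 81 were in 3 libraries, 80 in 2 and 79 in 1, so the members divided about evenly over the number of libraries. The commonest partial combination was presence in all but α-KG 2, with 50 members. Absence from α-KG 1 alone held for 12 members, from control 2 alone for 10 and from control 1 alone for 9.

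Set against the genes that the 3 other libraries shared, α-KG 2 missed 50 of 136 members (36.8%), where the background over all genes was 5.71%. Its share was larger in the lower ranges, 22 of 47 for Olr1 to Olr400 (46.8%) and 21 of 35 for Olr401 to Olr850 (60%). α-KG 1 missed 12 of 98 (12.2%, background 3.82%), control 2 missed 10 of 96 (10.4%, background 2.63%) and control 1 missed 9 of 95 (9.47%, background 7.25%). Of entries in a lone library, α-KG 2 held 10 members (3.07%, background 6.96%), control 1 held 25 (7.67%, background 1.73%), control 2 held 21 (6.44%, background 2.27%) and α-KG 1 held 23 (7.06%, background 2.03%). α-KG 2 was thus the library with the most lone entries over all genes and the fewest among the members, as it was in both lower ranges. Of its 147 members, 112 (76.2%) were in control 1, where the share over all its genes was 79.5%. Control 2 held 110 (74.8%, all genes 84.9%) and α-KG 1 held 118 (80.3%, all genes 84.9%). In the other direction, α-KG 2 held 49.1% of the members of control 1 (88.4% over all genes), 48.5% of those of control 2 (88.3%) and 52.7% of those of α-KG 1 (89.9%). The controls did not fully share their members either. Control 2 held 76.8% of the members of control 1 (92.8% over all genes), and control 1 held 77.1% of those of control 2 (86.8%). α-KG 1 held 70.2% of the members of control 1 (90.2%) and 72.2% of those of control 2 (88.5%).

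**Figure D3:**
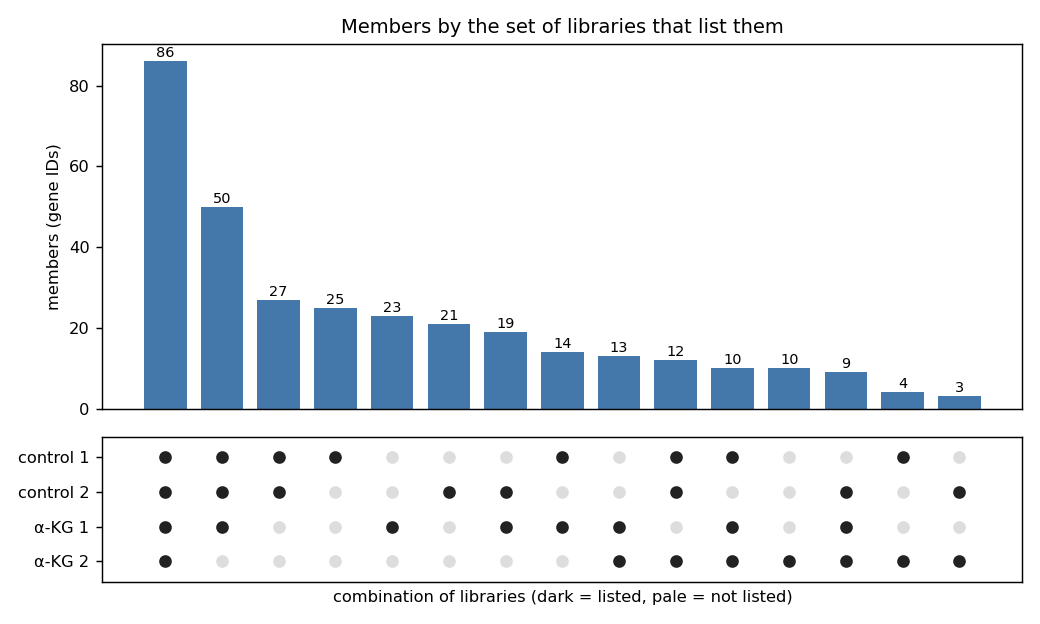
Number of members (y axis) for each combination of libraries that list them, with dark dots marking the listing libraries below each bar. The tallest bars are all 4 libraries (86) and all but α-KG 2 (50).

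Loss, here the presence of a gene in each control and its absence from each α-KG library, applied to 27 of the 175 members that the controls shared (15.4%, background 3.22% over all genes). Gain, the opposite pattern, applied to 13 of the 118 members that the α-KG libraries shared (11.0%, background 4.48%). Over all members, loss made up 8.28% (all genes 2.3%), and gain made up 3.99%, near the 3.25% of all genes. Mixed pairs also occurred. Control 2 and α-KG 1 alone listed 19 members (5.83%, all genes 1.28%), and control 1 and α-KG 1 alone listed 14 (4.29%, all genes 1.06%). Control 1 and α-KG 2 alone listed 4 (1.23%, all genes 1.05%), and control 2 and α-KG 2 alone listed 3 (0.92%, all genes 2.4%). Members that a group's libraries shared were also missed by each library of the opposite group. Of the 175 members in both controls, α-KG 1 missed 39 (22.3%, background 6.72%) and α-KG 2 missed 77 (44.0%, background 8.55%). Of the 118 in both α-KG libraries, control 1 missed 22 (18.6%, background 11.2%) and control 2 missed 23 (19.5%, background 6.81%). The first pair of rates is over members of both controls and the second over members of both α-KG libraries, so the pairs are not compared with each other. Within the first, α-KG 2 missed more members than α-KG 1. The controls also missed some of each other's members, as the overlaps above show. With α-KG 1 as the only treated library, 36 of its 224 members (16.1%, background 6.53%) were in neither control, and with α-KG 2, 23 of 147 (15.6%, background 11.9%). The lower ranges had larger loss, 21 of 74 for Olr1 to Olr400 (28.4%) and 18 of 56 for Olr401 to Olr850 (32.1%), and gains of 5 of 38 (13.2%) and 0 of 19. Whether the ranges differ was not tested.

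The 27 lost genes were spread over many clusters and several receptor families. Only 1 pair had consecutive numbers, Olr1683 (now named Or2n1) and Olr1684 (Or2h15). With absent numbers skipped, Olr1384 and Olr1386 (Or2v2 and Or2v1) and Olr1539 and Olr1541 also stood side by side. Other lost genes of the low numbers were Olr852 (Or13c9), the Or6c genes Olr879, Olr932 and Olr962, then Olr947 and Olr1067 (Or9r3b). The middle numbers held Olr1128 (Or7g20), Olr1297 and Olr1316 of the Or8g subfamily, Olr1361 (Or1f45), Olr1388 (Or2y1h), 1 of 2 gene IDs of Olr1434 (Or2ak6e) and Olr1450 (Or2ak4c). At higher numbers came Olr1470 (Or1e16d), Olr1511 (Or3a1f), Olr1589 (Or6n1), Olr1600 (Or10x1), Olr1602 (Or6y1), Olr1622 (Or11h23b), Olr1625 (Or4l1) and Olr1695 (Or2g1). All are odorant receptors, whose ligands are not given in these data.

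The 13 gained genes also had 1 pair with consecutive numbers, Olr1330 and Olr1331, neither of which matched a single RefSeq gene. A further 2, Olr862 (Or10ak14) and Olr868 (Or10ak7e), belong to the same cluster. The rest were Olr943, Olr950 (Or6c212), Olr1309 (Or10d4b), Olr1398 (Or2y13), Olr1404 (Or1ad6), Olr1431 (Or2ab1), Olr1462 (Or2b11), Olr1572 and Olr1679 (Or2n1l). Clusters could hold both kinds, since Olr943 and Olr950 were gained beside the lost Olr932, Olr947 and Olr962.

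Symbol numbers mostly followed the gene order. Of 303 pairs of members next to each other by number, 290 (95.7%) were also next to each other among members in the GRCr8 gene order. That count sets no limit on distance and runs on from a chromosome to the next. In the GRCr8 order the 317 placed members fell into 35 blocks, a block being a series of members with at most 20 other genes between neighbours. Of the 303 pairs, 270 had both members in the same block. Of the 35 blocks, 13 had 8 or more members and held 251 members together.

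α-KG 2 had the lowest listed share in 13 of these 13 blocks, from the block Olr875 to Olr917 through to Olr1668 to Olr1750. In 4 of them each α-KG library was under each control, namely Olr927 to Olr1072, Olr1115 to Olr1193, Olr1383 to Olr1401 and Olr1528 to Olr1563. In the block Olr1115 to Olr1193, mostly Or7g and Or7e genes, the controls listed 24 and 25 of 31 members and the α-KG libraries 20 and 14. In Olr1528 to Olr1563, with Or5h, Or5ac and Or5k genes, the controls listed 10 and 11 of 14 and the α-KG libraries 6 and 5. Among the 13, the widest gap in percentage listed between α-KG 2 and the next library was in Olr1576 to Olr1602 (18.2% against 72.7%). In this block of Or10j, Or6n and related genes the controls listed 9 and 8 of 11, α-KG 1 listed 8 and α-KG 2 listed 2. The 2 members that α-KG 2 listed there were Olr1576, which all libraries held, and Olr1601. In Olr1668 to Olr1750, by contrast, α-KG 1 listed the most, 13 of 20, beside 9 and 11 in the controls and 6 in α-KG 2.

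**Figure D4:**
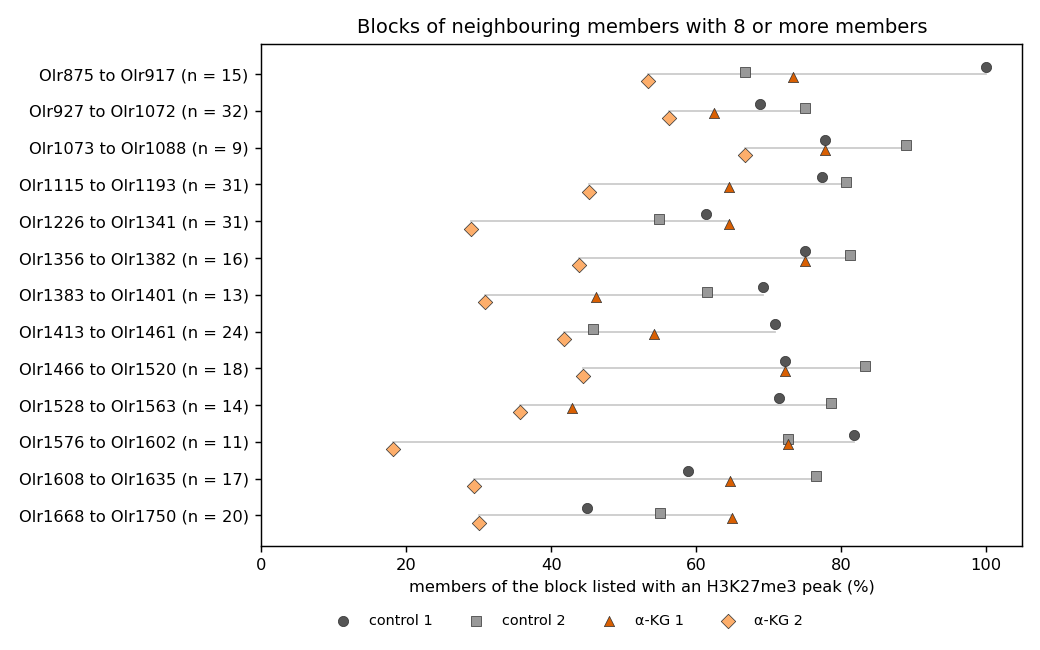
Percentage of members listed (x axis) in each library (symbols) for the 13 blocks of neighbouring members with 8 or more members (rows, with the number of members). The α-KG 2 diamond is the leftmost symbol in every row, from 18.2% in Olr1576 to Olr1602 to 66.7% in Olr1073 to Olr1088.

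With the cut lowered from 8 members to 5, there were 19 blocks, and 2 of them had each α-KG library above each control. Neither was among the 13 blocks of 8 or more members, where α-KG 2 was always lowest. The 4 blocks named above with each α-KG library under each control are also among the 19. In Olr860 to Olr869, whose 5 placed members are all Or10ak genes, the controls listed 2 each and the α-KG libraries 5 each. Control 1 held Olr866 and Olr869 there, control 2 held Olr860 and Olr866, and Olr862 and Olr868 were in neither. Olr867, which was not placed, was in control 1 and both α-KG libraries. In Olr1404 to Olr1409, with Or1ad and Or1x genes, control 1 listed 0 of 5 members, control 2 listed 2, α-KG 1 listed 4 and α-KG 2 listed 3. Of these 5 genes only Olr1404 was absent from both controls and present in both α-KG libraries. Every member was listed in all 4 libraries in 2 blocks of more than 1 member, Olr1751 to Olr1767, where the 4 members are of different subfamilies, and Olr1092 to Olr1095, with 2 members. The same held for the lone members Olr854, Olr1096, Olr1667 and Olr1768.

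Runs of consecutive numbers were short in every library, but the numbering itself limited their length. A run ends at any number without an entry, and 706 of the 1027 numbers in the span had none. Short runs therefore say nothing by themselves about the mark. The longest listed run had 5 numbers in control 1 (Olr877 to Olr881, Olr1104 to Olr1108, Olr1380 to Olr1384 and Olr1638 to Olr1642), and 5 in control 2 (Olr1605 to Olr1609). It had 4 in α-KG 1, 6 times, among them Olr866 to Olr869 and Olr1567 to Olr1570, and 4 in α-KG 2 (Olr866 to Olr869, Olr1638 to Olr1641 and Olr1765 to Olr1768). Control 1 had 48 runs of 2 or more listed numbers, control 2 had 44, α-KG 1 had 42 and α-KG 2 had 23. The longest unlisted run was Olr1406 to Olr1409 in control 1 and Olr1386 to Olr1389 in α-KG 1, each of 4. In control 2 it was 3 numbers (Olr867 to Olr869 and Olr1413 to Olr1415). α-KG 2 missed 4 in a row at Olr1192 to Olr1195 and at Olr1386 to Olr1389, and it had 32 unlisted runs of 2 or more, against 13, 14 and 10 in control 1, control 2 and α-KG 1.

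Skipping the numbers that no library named made the runs longer. This rule takes no account of position, so such a run can pass over genes with no entry and from a block to another. In control 1 all members from Olr1076 to Olr1117 were listed, 18 numbers in a row across several blocks. In control 2 it was the 12 from Olr1159 to Olr1192, within a single block. α-KG 1 listed 14 in a row from Olr1560 to Olr1588, also across blocks. α-KG 2 missed 8 in a row from Olr1579 to Olr1600, which overlap that run and lie in a single block. The longest listed run of α-KG 2 was the 8 numbers from Olr853 to Olr869, across blocks. Control 1 missed 7 in a row from Olr1404 to Olr1414, likewise across blocks. In the gene order of GRCr8, control 1 listed all 15 placed members of the Or6c-rich block Olr875 to Olr917, of which control 2 listed 10, α-KG 1 listed 11 and α-KG 2 listed 8.

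Neighbours often differed in state. Among 136 pairs of consecutive numbers, both were listed in 75 pairs in control 1, 67 in control 2, 64 in α-KG 1 and 33 in α-KG 2. Exactly 1 of the pair was listed in 45, 53, 59 and 58 pairs, and neither in 16, 16, 13 and 45. The pairs with the same state thus made up 66.9%, 61.0%, 56.6% and 57.4% in the same order of libraries. For the 57 pairs of Olr401 to Olr850 the shares were 66.7%, 47.4%, 56.1% and 66.7%, and for the 83 pairs of Olr1 to Olr400 they were 71.1%, 56.6%, 48.2% and 53.0%. These shares also move with how many genes a library lists.

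**Figure D5:**
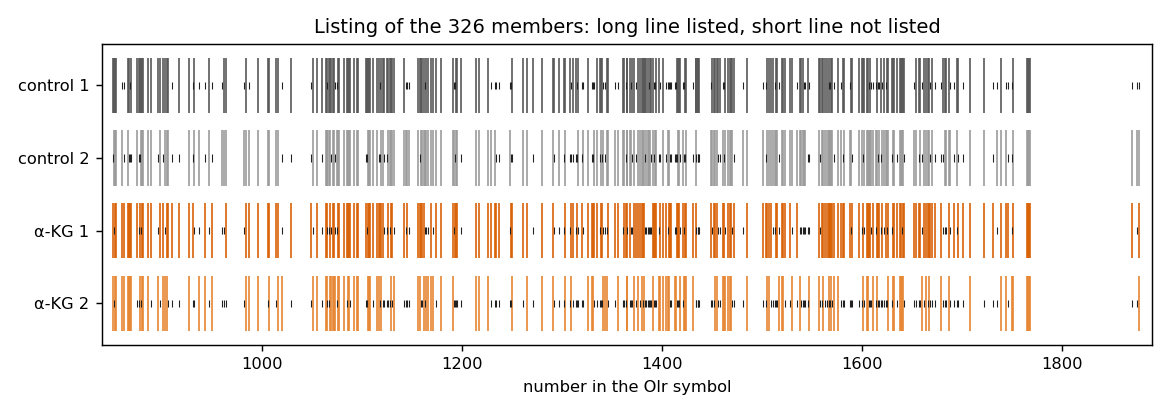
Listing of each of the 326 members by the number in its symbol (x axis) in the 4 libraries (rows), with a long line where a member was listed and a short dark line where it was not. Listed and unlisted members are mixed along the numbers in every library, and the row of α-KG 2 has the most short lines (179 of 326).

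Lone entries rarely came in runs. The longest were pairs, Olr1436 and Olr1437 in control 1, Olr1542 and Olr1543 in control 2, Olr1408 and Olr1409 in α-KG 1, and Olr1413 and Olr1414 in α-KG 2. The members missed by α-KG 2 alone formed 4 pairs of consecutive numbers, Olr1159 and Olr1160 (Or7e genes), Olr1194 and Olr1195 (Or8a), Olr1416 and Olr1417 (Or2t48), and Olr1514 and Olr1515. Members in all 4 libraries formed 13 such runs, the longest being Olr1765 to Olr1768 and then Olr1106 to Olr1108, whose windows were among the richest in CG.

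Grouped by the receptor family in the current RefSeq name, 299 members fell into 14 families, 10 of which had 8 or more members. α-KG 2 had the lowest share in 9 of the 10 and was level with α-KG 1 in the other, family 5, where each control listed 13 of 17 and each α-KG library 8. The largest was family 2, with 64 members, of which the controls listed 43 and 38, α-KG 1 listed 40 and α-KG 2 listed 25. It held 8 of the lost and 4 of the gained genes. Family 6 (43 members, mostly Or6c) had 32 and 30 listed in the controls and 25 and 23 in the α-KG libraries, with 5 lost and 1 gained. Family 7 (38 members) had 29 and 31 in the controls and 25 and 19 in the α-KG libraries, with 1 lost and 0 gained. Family 1 (36 members) had 25 and 28 in the controls, 29 in α-KG 1 and 16 in α-KG 2. Family 8 (29 members) had 21 and 18 in the controls, 20 in α-KG 1 and 10 in α-KG 2. Family 10 (32 members) was, among the 10, where α-KG 1 stood furthest above the controls, with 27 listed against 22 and 21 there and 17 in α-KG 2. It held 3 gained genes and 1 lost gene.

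Start windows were compared base by base with no gaps. By that measure 3 pairs of differently named members reached 80% identity, each within a block. An inserted or deleted base lowers this identity, and members without a window were not compared, so other close copies may be missed. The pairs had the same state in 2, 3 and 3 of the 4 libraries, and 0 of the 3 had the same combination of libraries. Olr1248 and Olr1249, of the Or8b subfamily, were the closest pair at 92.0%, with 276 of 300 bases the same. Olr1248 was listed in control 2 alone and Olr1249 in α-KG 1 alone. Of the 24 differences, 21 lay before the start codon and 3 from it onward. Their windows, on the plus strand at chr8:47573902-47574201 and chr8:47588468-47588767 of GRCr8, are shown with the bases that differ in capitals.
Olr1248: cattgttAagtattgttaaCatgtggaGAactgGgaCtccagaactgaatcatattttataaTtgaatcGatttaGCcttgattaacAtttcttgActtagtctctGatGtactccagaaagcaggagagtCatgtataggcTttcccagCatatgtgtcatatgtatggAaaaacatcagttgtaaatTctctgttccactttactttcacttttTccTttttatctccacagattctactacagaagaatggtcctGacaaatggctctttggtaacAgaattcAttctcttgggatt
Olr1249: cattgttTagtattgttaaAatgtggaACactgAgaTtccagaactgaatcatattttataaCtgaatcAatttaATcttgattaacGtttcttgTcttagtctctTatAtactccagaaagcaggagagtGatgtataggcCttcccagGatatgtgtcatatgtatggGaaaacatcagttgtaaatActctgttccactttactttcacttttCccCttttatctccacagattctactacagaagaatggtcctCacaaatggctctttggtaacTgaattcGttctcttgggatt

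Olr1418 and Olr1422 (86.7% identity) shared α-KG 2, and Olr1418 was also in control 1. Olr1470 and Olr1481 (83.0%) shared control 2, and Olr1470 was also in control 1. How the authors treated reads that fit more than 1 copy is not given in the sources used here, and its part in the state of these members was not tested. The same holds for the 5 symbols with 2 gene IDs, where a symbol has a single RefSeq gene. Both IDs of Olr1065, Olr1434 and Olr1567 were given its window, and Olr1365 and Olr1436 had no window. Both IDs of Olr1436 were in control 1 alone. The IDs of Olr1065, Olr1365, Olr1434 and Olr1567 differed, for example Olr1065 with 1 ID in all 4 libraries and the other in control 2 alone.

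The genes that olfactory neurons use beside the receptors were listed far more evenly. Of a list of 37, 33 had an entry and 30 of these (90.9%) were in all 4 libraries, against 62.8% of all listed genes. They include Gnal and Adcy3, the G protein subunit and adenylyl cyclase that carry the odorant signal, the channel genes Cnga2 and Ano2, and Rtp1 and Reep1, which help receptors reach the membrane. They also include Lhx2, Ldb1, Emx2 and Ebf2, whose proteins act in receptor gene transcription, and Kdm1a, a histone demethylase needed for receptor choice. The controls listed 31 and 30 of the 33, α-KG 1 listed 31 and α-KG 2 all 33, so α-KG 2 had the most. The exceptions were Rtp2 and Cbx5, which encodes a heterochromatin protein, both in α-KG 2 alone, and Kirrel2, an adhesion gene, absent from control 2. Cnga4, Omp and Ebf1 had no entry. The symbol Goldo had none either, and it is counted in the 37 although it was to be left out in that case.

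A list of genes with a repressive mark does not identify the cells it came from. Of 6 cardiomyocyte genes, Tnnt2, Actc1 and Actn2 were in all 4 libraries, Ryr2 in the controls alone, Myh7 in α-KG 2 alone, and Myh6 had no entry. Of 4 fibroblast genes, Dcn and Postn were in all 4, Col1a1 in all but α-KG 1, and Col1a2 had no entry. The part of other cells in the listing of the receptor genes was not tested.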

How the data were processed

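The authors deposited, for each of 4 H3K27me3 libraries, a list without header that gives the Ensembl gene ID, symbol and domain names of each gene with a peak, and no counts, scores or other values. Build rn6 and the tools CASAVA, BWA and MACS2 stand in the submitters' processing notes, with no roles or versions. How peaks were called, filtered and assigned to genes is not given in the sources used here, and read depth is unknown. The 2 input samples were not analysed here.

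Groups and replicate numbers came from the labels. Lists were read with Python 3.11.15 and numpy 2.4.6, and plotted with matplotlib 3.10.9. Members were matched to RefSeq (GRCr8) by current, then older, symbol, and 9 had no single match. GRCr8 differs from rn6 and served for names, gene order and printed windows. Entries were counted by gene ID, runs by number. Functions were tested on simulated lists. No test was made. Members, lists, blocks and settings were chosen with earlier results of these data known. Named are all lost and gained members, the longest runs, members at the rule's edge, those with 2 IDs, and the most similar pairs; protein identity was replaced by window identity. Alternatives were each library left out, distinct symbols, symbols with a suffix, a required domain, a replicate block and other neighbour rules.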

Additional observations from a re-analysis of the deposited data

How the results depend on the processing

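The difference in listed members stayed negative throughout, from -80.5 to -3.5 with 1 library left out and -40 by distinct symbol. With 1 library left out, lost members numbered 39 to 77, gained members 22 to 36, and members in every remaining library 95 to 136, by construction, because a pattern over 3 libraries is easier to meet. Leaving out control 1, control 2 or α-KG 1 gave 48, 52 or 77 lost members and 23, 22 or 23 gained ones. Leaving out α-KG 2 gave 36 gained members and the 136 in every library. Allowing a suffix or requiring an olfactory receptor domain changed none of these counts. With the replicate block, the mean difference within same-numbered pairs was again -42 and lost members again 27, both by construction; the pairs differed by -4 and -80 members. The longest listed run of control 1, control 2, α-KG 1 and α-KG 2 rose from 5, 5, 4 and 4 consecutive numbers to 18, 12, 14 and 8 with absent numbers skipped, and to 15, 12, 7 and 5 in GRCr8 gene order, since more genes then count as neighbours. The olfactory signalling genes in every library numbered 30 to 31 with 1 library left out, a setting chosen after seeing the data. Unknown depth means that an unlisted member may lack the mark or lie below detection.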
